A study of Mus musculus with 6 samples.

Results

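Long noncoding RNAs act through the proteins they bind and may share a locus with protein-coding genes. Described here are 6 genes, of 17460 gene symbols in the table, that belong to the locus of the lncRNA Blnc1 or encode proteins reported to bind it. They were chosen by symbol. Paqr9 is the locus gene and U2surp its neighbour. Hnrnpu, Edf1, Zbtb7b and Ebf2 encode protein partners, and this set is not complete. The paper also reports that Blnc1 binds YBX1 in the liver and forms a complex with LXRα in transfected cells. The genes of YBX1 and LXRα are not members of the set. Liver polyA RNA was sequenced in 3 control and 3 Blnc1 LKO (liver-specific knockout) C57BL/6 mice, aged 9 months and fed a NASH diet, which causes nonalcoholic steatohepatitis, for 24 weeks. By the study's methods, LKO mice were Cas9 transgenic mice transduced through the tail vein with an adenovirus expressing a pair of sgRNAs against Blnc1. Control mice of the same design received a GFP adenovirus, although the labels of the sequenced livers say only control. Adenovirus reaches hepatocytes far better than the non-parenchymal cells of the liver. The paper reports that Blnc1 fell only partly in whole liver and further in fractionated hepatocytes, and was largely unaltered in the non-parenchymal fraction. The labels do not say that each liver came from a separate litter or cage, and p-values measure the spread between these 6 livers.

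Blnc1 was first described in brown and beige fat, which burn lipid to make heat, and EBF2 and ZBTB7B are the DNA-binding partners known from there. The RNA-binding protein hnRNPU is a general partner of nuclear lncRNAs. In the liver, the coactivator EDF1 joins Blnc1 to the liver X receptor (LXR), a nuclear receptor that turns on SREBP1c and the synthesis of fatty acids. The comparison of control with LKO livers asks whether mRNA of the locus genes and of the partners in the set differed once hepatocyte Blnc1 was targeted.

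Values are gene-level read counts scaled by the library size factors, here called normalized read counts. Livers held from 65384969 to 89350181 reads on the listed genes. Of the 6 genes, 5 passed the filter of a normalized read count of at least 1 in at least 3 livers, and Ebf2 did not. None of these 5 genes was called by limma at an adjusted p under 0.05, whereas 1 of all 17297 genes tested was (0.00578%). At an unadjusted p under 0.05, limma called 0 of the 5, against 5.68% of all genes (2.94% higher and 2.74% lower in LKO livers). None of the 5 was called by edgeR (0.0116% of all genes), DESeq2 (0.538%) or voom (0.00578%). The control and LKO values overlapped for every one of the 5 genes, and did not overlap for 10.6% of all genes. In whole liver, fewer cells of a type and less RNA per cell cannot be told apart.

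**Figure D1:**
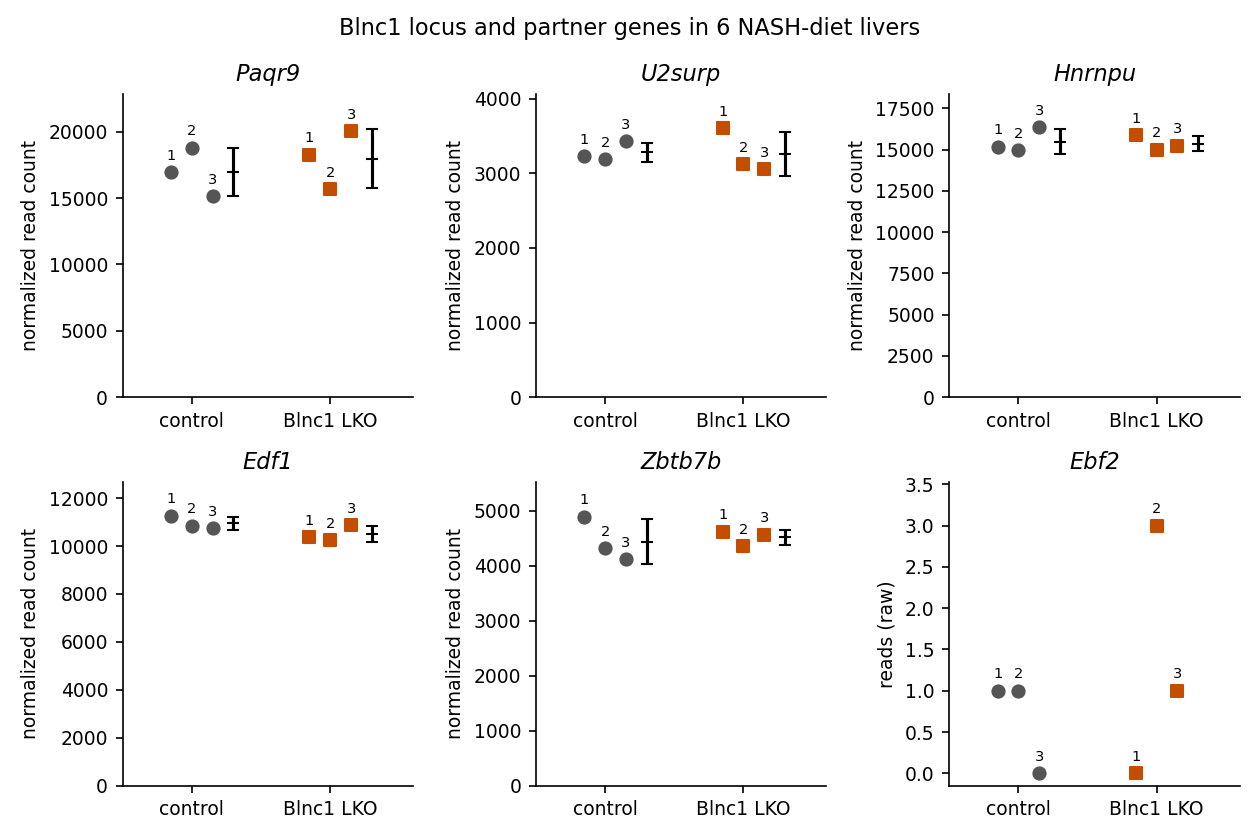
Each panel plots 1 gene, with the normalized read count per liver on the y axis (raw reads for Ebf2), control livers as grey circles and Blnc1 LKO livers as orange squares numbered by replicate. Bars beside the points give the mean and SD (n = 3, not drawn for Ebf2). The groups overlap in all 6 panels, and the Ebf2 panel holds at most 3 reads in a liver.

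Paqr9 encodes a membrane protein of the progestin and adipoQ receptor family. GENCODE places it on the + strand of chromosome 9 (GRCm38, the build also called mm10), from 95559657 to 95568023, as 1 exon of 8367 bases. Its coding sequence takes 13.4% of that exon, and 82.9% of the exon lies after it, in the 3′ UTR. RefSeq lists Blnc1 among the synonyms of Paqr9, the table has no row of its own for Blnc1, and the library kit does not keep the strand of the RNA. Reads from Blnc1 within this exon would therefore stand in the Paqr9 row, and the row is no test of the Blnc1 deletion. The paper treats Paqr9 as a separate gene next to Blnc1, and reports that the sgRNA adenovirus did not affect Paqr9 mRNA. The row held 18180, 17656 and 14229 reads in control replicates 1 to 3, and 15350, 16671 and 23970 reads in LKO replicates 1 to 3. After scaling, the normalized read counts were 16950, 18810 and 15156 in the control mice. They were 18268, 15663 and 20027 in the LKO mice. LKO replicate 3 was the highest liver and control replicate 3 the lowest, and the other livers of both groups alternated between them. The mean was 16972 ± 1827 (SD, n = 3) in control and 17986 ± 2196 (SD, n = 3) in LKO livers. The difference was 0.08 on the log2 scale (SE 0.11), with a 95% interval from −0.16 to 0.32 (adjusted p = 0.978, limma). As a ratio, the LKO level was 1.06 times that of control, with an interval from 0.896 to 1.25. Of the 497 genes of like level (within 0.5 on the log2 scale), 85.3% had a smaller within-group SD than Paqr9, which was 0.168.

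U2surp encodes a splicing factor that associates with the U2 small nuclear ribonucleoprotein. It lies on the − strand of chromosome 9, from 95456898 to 95511996, and its start is 47.7 kb from that of Paqr9, so the genes point away from each other. Apart from Paqr9 itself, U2surp has the start nearest to that of Paqr9 among genes of the table, and its promoter is printed below with those of the partners. The normalized read counts of U2surp were 3227, 3190 and 3431 in control replicates 1 to 3. LKO replicates 1 to 3 had 3601, 3121 and 3052. One LKO liver was the highest of all and the other two were the lowest, so the control livers lay inside the range of the LKO livers. The difference was −0.014 on the log2 scale (SE 0.073, interval −0.18 to 0.15, adjusted p = 0.999, limma). The ratio was 0.990, with an interval from 0.882 to 1.11. Its direction turned without control replicate 3, LKO replicate 2 or LKO replicate 3.

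Within 1 Mb of the Paqr9 start, GENCODE annotates 42 genes, of which 14 are in the table, Paqr9 and 13 neighbours. None of the 13 neighbours was called at an adjusted p under 0.05 by limma, edgeR, DESeq2 or voom. At an unadjusted p under 0.05, limma called 1 of the 13, against 5.68% of all genes. Of the 13, 5 had a log2 fold change above 0 (higher in LKO livers) and 8 below 0, with a median of −0.01, against −0.001 for all genes tested. The gene with the unadjusted p under 0.05 was Pcolce2, the next table gene beyond Paqr9, whose start is 77.9 kb away on the + strand. Pcolce2 encodes an enhancer of the protease that trims procollagen. Its normalized read counts were 155, 175 and 117 in control and 190, 181 and 231 in LKO livers. All 3 LKO livers lay above every control liver, a separation in this direction that 5.35% of all genes showed. The Pcolce2 difference was 0.44 on the log2 scale (SE 0.18, interval 0.04 to 0.85, adjusted p = 0.851, limma). On the same side, the cation channel gene Trpc1 differed by 0.03 (interval −0.45 to 0.51) and Pls1, which encodes an actin-bundling plastin, by −0.09 (interval −0.35 to 0.16). On the other side of Paqr9, beyond U2surp, the sulfotransferase gene Chst2 differed by −0.13 (interval −0.35 to 0.09) and Slc9a9, a sodium/proton exchanger gene, by 0.06 (interval −0.14 to 0.25). The 2 other neighbours of smallest p were Tfdp2, which encodes a partner of E2F factors, at 0.18 (SE 0.11), and Atp1b3, a sodium pump subunit gene, at −0.08 (SE 0.057).

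**Figure D2:**
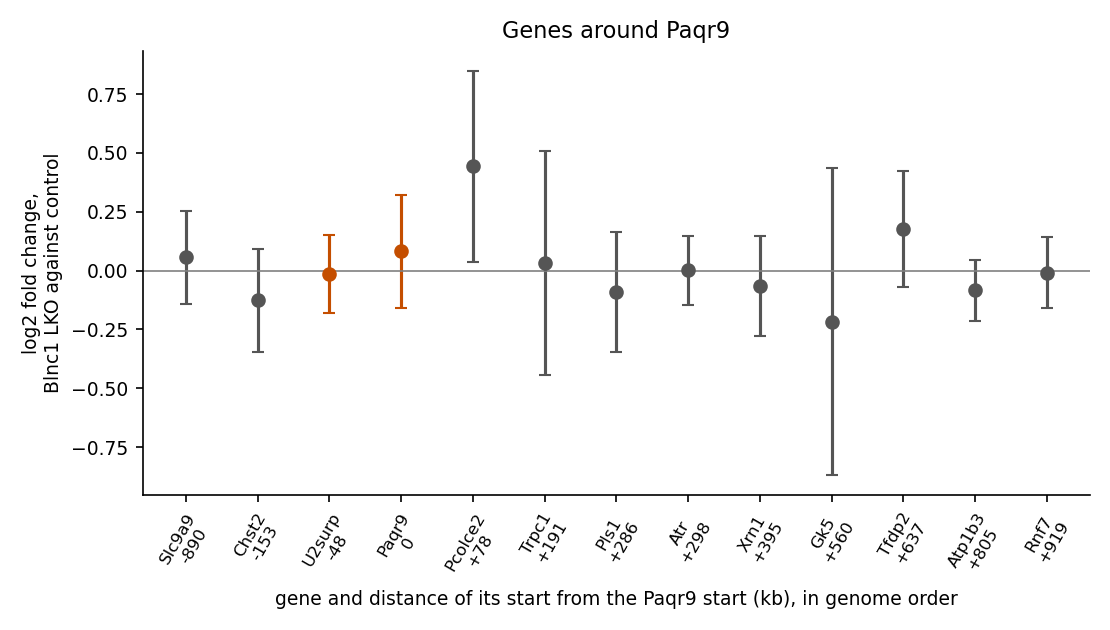
Points give the log2 fold change of LKO against control for Paqr9 and its neighbours in genome order, with distance of the start from the Paqr9 start in kb under each name, and bars give the 95% interval from limma (3 livers per group). Paqr9 and U2surp are orange, and the neighbour with a mean near 1 (1700065D16Rik) is left out. Pcolce2 has the highest point, at 0.44, and is the gene whose interval does not reach 0.

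Hnrnpu encodes heterogeneous nuclear ribonucleoprotein U, which binds RNA and chromatin and helps nuclear RNAs stay at their sites. It lies on the − strand of chromosome 1, from 178321108 to 178337797. Its normalized read counts were 15174, 14947 and 16348 in control replicates 1 to 3. They were 15864, 14994 and 15233 in LKO replicates 1 to 3. Control replicates 3 and 2 were the highest and the lowest livers, so the LKO values lay inside the control range. The mean was 15490 ± 752 (SD, n = 3) in control and 15364 ± 449 (SD, n = 3) in LKO livers. The difference was −0.011 on the log2 scale (SE 0.057, interval −0.14 to 0.12, adjusted p = 0.999, limma), and it turned direction without control replicate 3 or LKO replicate 2. The ratio was 0.992, with an interval from 0.906 to 1.09. Hnrnpu shares 804 exonic bases, 6.93% of its own, with Cox20 on the other strand, and reads there cannot be told apart without strand. Cox20, a factor for cytochrome c oxidase assembly, differed by −0.04 (SE 0.076, limma).

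The hnRNP family holds RNA-binding proteins that act in splicing, export and stability of transcripts. All 26 listed members, Hnrnpu among them, were tested. None was called by limma, edgeR, DESeq2 or voom after adjustment. At an unadjusted p under 0.05, limma called 2, both lower in LKO livers, against 5.68% of all genes (2.74% lower). The log2 fold change of limma was below 0 for 23 of the 26 genes, with a median of −0.03. Over all genes tested, 49.6% had a log2 fold change above 0 and the median was −0.001. The genes with an unadjusted p under 0.05 were Hnrnpa0, which binds AU-rich elements, and Raly. Hnrnpa0 had 5453, 5133 and 5222 in control and 4368, 4621 and 4775 in LKO livers, so the groups did not overlap. Its difference was −0.20 (SE 0.055, adjusted p = 0.684, limma). Raly differed by −0.13 (SE 0.054, adjusted p = 0.870, limma), and Hnrnpll, a splicing regulator of lymphocytes, by −0.15 (SE 0.065, adjusted p = 0.873, limma). For 4 of the 26 genes every LKO liver lay below every control liver, a separation seen in this direction for 5.28% of all genes. The closest paralogs of Hnrnpu differed by −0.01 (Hnrnpul1, interval −0.12 to 0.11) and −0.03 (Hnrnpul2, interval −0.15 to 0.09).

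Edf1 encodes endothelial differentiation-related factor 1, a small coactivator that bridges nuclear receptors to the general transcription machinery, binds calmodulin and also senses collided ribosomes. It lies on the + strand of chromosome 2, from 25557847 to 25562082. Its normalized read counts were 11259, 10854 and 10745 in control replicates 1 to 3. LKO replicates 1 to 3 had 10364, 10244 and 10862. LKO replicates 1 and 2 lay below every control liver, whereas LKO replicate 3 lay between control replicates 1 and 2. The mean was 10953 ± 271 (SD, n = 3) in control and 10490 ± 328 (SD, n = 3) in LKO livers. The difference was −0.06 on the log2 scale (SE 0.051, interval −0.18 to 0.05, adjusted p = 0.971, limma). The ratio was 0.958, with an interval from 0.883 to 1.04. This was the smallest p of the 5 tested genes, and it ranked 4544 among 17297. Edf1 was also the steadiest of the 5, with a within-group SD of 0.040 on the log2 scale, and 13.0% of 816 genes of like level had a smaller one.

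EDF1 acts in 2 settings, and the other genes of each were examined. In ribosome collision sensing, 9 of 12 listed genes were in the table and tested, and none was called by limma, edgeR, DESeq2 or voom after adjustment, nor at an unadjusted p under 0.05 in limma. Their log2 fold changes ranged from −0.06 to 0.05. The 3 of smallest p were Rps3, a protein of the small ribosomal subunit, at −0.06 (SE 0.058), Ascc2, a subunit of the complex that splits collided ribosomes, at −0.05 (SE 0.058), and Zfp598, the ligase that marks them, at 0.05 (SE 0.056). Among 19 general factors, calmodulin genes and nuclear receptor coregulators, again none was called by those 4 tests or had an unadjusted p under 0.05 in limma, and the median log2 fold change was −0.01. The smallest p in this list was that of the calmodulin gene Calm2, whose difference was −0.07 (SE 0.048, adjusted p = 0.956, limma). Calm2 values of all LKO livers, from 9367 to 9715, lay below the lowest control liver, at 9926. In this list 2 genes separated in this direction, beside 5.28% of all genes. The general factor gene Gtf2a2 differed by 0.09 (SE 0.067). The LXR complex list held 6 tested genes, 4 with a log2 fold change above 0 and 2 below, a median of 0.01, and 0 called by limma, edgeR or voom. Of the 6, 1 gene, Srebf1, had an unadjusted p under 0.05 in limma, beside 5.68% of all genes. Nr1h3, which encodes LXRα, had 8772, 8761 and 8451 in control and 9137, 8846 and 9489 in LKO livers, a difference of 0.08 (SE 0.051, adjusted p = 0.951, limma). Every LKO liver lay above every control liver for Nr1h3, a separation in this direction that 5.35% of all genes showed. Rxra, the gene of its dimer partner, differed by 0.10 (SE 0.080). The LXR target Srebf1 differed by −0.42 (SE 0.097, adjusted p = 0.548, limma) and was lower in every LKO liver than in every control liver (5.28% of all genes in this direction). Srebf1 was called by DESeq2 (adjusted p = 0.0111), which called 0.538% of all genes, but not by edgeR (adjusted p = 0.543).

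**Figure D3:**
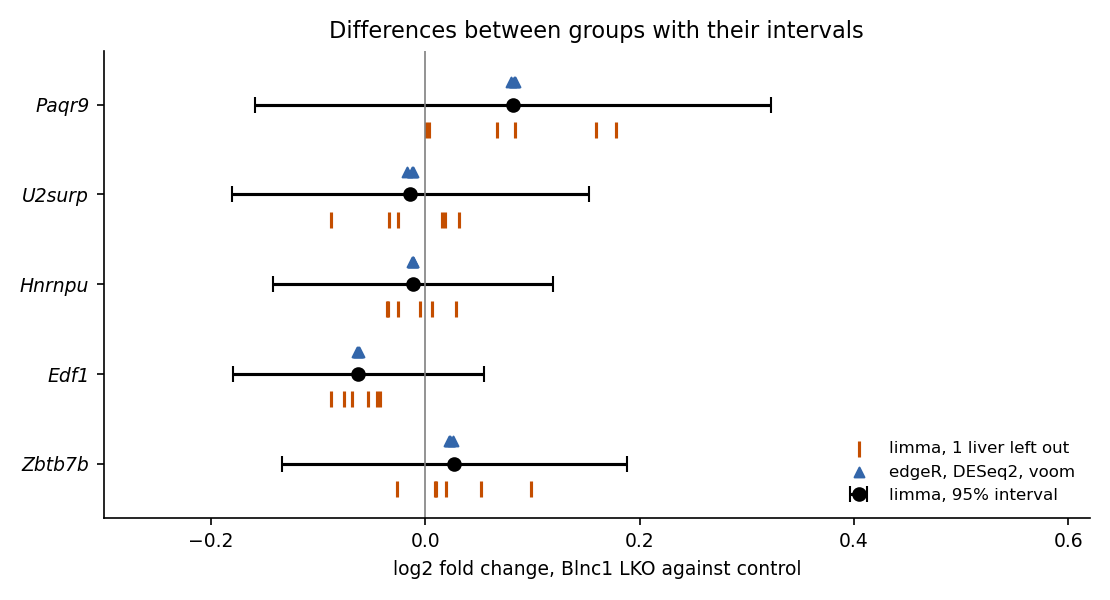
Black circles give the log2 fold change of LKO against control for the 5 tested genes with the 95% interval from limma (3 livers per group), blue triangles the estimates of edgeR, DESeq2 and voom, and orange ticks the limma estimates with 1 liver left out. All intervals span 0, and the ticks of U2surp, Hnrnpu and Zbtb7b fall on both sides of 0.

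Zbtb7b encodes a zinc finger and BTB domain factor, also known as ThPOK, that directs the CD4 T-cell fate and brown fat gene expression. It lies on the − strand of chromosome 3, from 89377644 to 89394776. Its normalized read counts were 4893, 4321 and 4118 in control replicates 1 to 3. LKO replicates 1 to 3 had 4623, 4361 and 4568. Control replicate 1 was the highest liver, and all LKO livers stood between it and the other controls. The difference was 0.03 on the log2 scale (SE 0.071, interval −0.13 to 0.19, adjusted p = 0.991, limma), with a ratio of 1.02 and an interval from 0.911 to 1.14. It turned to −0.03 without control replicate 3. Zbtb7b shares 116 exonic bases (2.07% of its own) with the antisense gene Gm15417, which differed by 0.20 (SE 0.10, adjusted p = 0.919, limma). T-cell markers were low, with a summed level from 1641 to 2063 in control and from 1446 to 2180 in LKO livers over 7 of the 8 listed genes, and none of the 7 had an unadjusted p under 0.05 in limma or was called by another test. The part of T cells in the Zbtb7b level was not tested.

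The table holds 42 genes whose symbol starts with Zbtb (Zbtb11os1, an opposite-strand transcript, among them), all of them tested. None was called by limma, edgeR, DESeq2 or voom after adjustment, and none had an unadjusted p under 0.05 in limma. The log2 fold change was above 0 for 21 and below 0 for 21, with a median of 0.01. The closest paralogs, Zbtb7a and Zbtb7c, differed by −0.02 (interval −0.21 to 0.17) and 0.05 (interval −0.39 to 0.49). The 3 genes of smallest p were Zbtb1 at −0.14 (SE 0.064, adjusted p = 0.879, limma), Zbtb2 at 0.18 (SE 0.081, adjusted p = 0.891, limma) and Zbtb4 at 0.12 (SE 0.073, adjusted p = 0.942, limma). The groups did not overlap for 4 of the 42 genes (3 higher and 1 lower in LKO livers), beside 10.6% of all genes. Of these genes, Zbtb1, which is needed for lymphocyte development, was the lower one, and Zbtb2 was among the higher ones.

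Ebf2 encodes early B-cell factor 2, which specifies brown adipocytes. It lies on the + strand of chromosome 14, from 67233292 to 67430918. The row held 1, 1 and 0 reads in control replicates 1 to 3, and 0, 3 and 1 reads in LKO replicates 1 to 3. That is 2 reads in 219123612 over the control livers (exact Poisson 95% interval 0.242 to 7.22 reads) and 4 reads in 230714524 over the LKO livers (1.09 to 10.2 reads). These intervals cover counting error only and overlap, and no fold change is given at this level. An effect on Ebf2 was not detectable at this depth. The related genes were low too. Mean normalized read counts in control livers were 49.2 for Ebf1, which drives B-cell fate, 11.9 for Ebf3 and 63.0 for Ebf4. Their differences were −0.15 (SE 0.21), 0.01 (SE 0.38) and −0.13 (SE 0.23) on the log2 scale. The EBF-binding zinc finger genes Zfp423 and Zfp521, which restrain the thermogenic and adipocyte programs, differed by 0.13 (SE 0.13) and −0.32 (SE 0.15, adjusted p = 0.890, limma). Zfp521 had 118, 115 and 110 in control and 84.5, 90.2 and 99.4 in LKO livers, which did not overlap. A separation in this direction was seen for 5.28% of all genes. Of the 5 tested genes of this list, none was called by limma, edgeR, DESeq2 or voom after adjustment, or had an unadjusted p under 0.05 in limma. Of 6 listed adipocyte markers, 4 were in the table and 3 were tested, all 3 with a log2 fold change above 0 (0.60 to 0.94, median 0.87). Adipoq and Retn had means from 0.710 to 2.10 in either group, and Plin1, which was not tested, from 0.592 to 1.38. Cfd, the gene of the secreted protease adipsin, made up nearly all of the summed level, with 773, 1596 and 568 in control and 1789, 1435 and 1664 in LKO livers. It was the 1 gene of the list with an unadjusted p under 0.05 in limma, beside 5.68% of all genes. Control replicate 2 lay inside the LKO range. The part of adipocytes in the Ebf2 reads was not tested.

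Genes of brown and beige fat were examined as a list of 14, of which 13 were tested. Ucp1 was the gene of this list absent from the table. None was called by limma, edgeR, DESeq2 or voom after adjustment. Elovl3 was the 1 gene with an unadjusted p under 0.05 in limma, beside 5.68% of all genes. Elovl3 encodes an elongase of very long chain fatty acids that is strongly expressed in brown fat and also in liver. It had 1544, 2047 and 1455 in control and 3901, 2026 and 3757 in LKO livers, a difference of 0.90 (SE 0.24, adjusted p = 0.648, limma). LKO replicates 1 and 3 stood above every control liver, and LKO replicate 2 lay just below control replicate 2. The next smallest p-values were those of Otop1 and Dio2, whose mean normalized read counts were at most 5.44 in either group. The median log2 fold change of the 13 genes was 0.03, with 8 above 0 and 5 below.

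The PAQR family, to which Paqr9 belongs, includes the adiponectin receptors and the membrane progestin receptors. All 11 members were tested, 8 with a log2 fold change above 0 and 3 below, and the median was 0.07. None was called by limma, edgeR or voom after adjustment, and 1 was called by DESeq2, beside 0.538% of all genes. This was Mmd2, also known as Paqr10, a Golgi protein gene. Mmd2 had 1224, 846 and 1406 in control and 524, 536 and 353 in LKO livers, without overlap (5.28% of all genes in this direction). Its difference was −1.29 (SE 0.21, adjusted p = 0.355, limma), with an adjusted p of 0.321 in edgeR and 9.8e-08 in DESeq2. It was the 1 member with an unadjusted p under 0.05 in limma, beside 5.68% of all genes. The adiponectin receptor genes Adipor1 and Adipor2 differed by 0.00 (interval −0.11 to 0.11) and 0.07 (interval −0.12 to 0.26). Mmd, the closest paralog of Mmd2, differed by 0.13 (SE 0.081), and Paqr8 by 0.16 (SE 0.16). Paqr8 had 88.6, 86.3 and 73.5 in control and 92.8, 91.1 and 93.6 in LKO livers, without overlap (5.35% of all genes in this direction).

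U2surp was set beside the other factors of the U2 particle and branch point recognition. Of 23 tested genes, none was called by limma, edgeR, DESeq2 or voom after adjustment or had an unadjusted p under 0.05 in limma. Their log2 fold changes ranged from −0.12 to 0.10, with 9 above 0, 14 below and a median of −0.01. The groups did not overlap for 2 genes higher and 2 lower in LKO livers, beside 5.35% and 5.28% of all genes. Rbm17 and Cherp, whose proteins form a complex with U2SURP, differed by 0.06 (SE 0.060) and −0.04 (SE 0.061). The smallest p-values were those of Dnajc8 at 0.10 (SE 0.055), Sf3b6 at 0.10 (SE 0.057) and Dhx15, the helicase that takes spliceosomes apart, at −0.08 (SE 0.052).

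**Figure D4:**
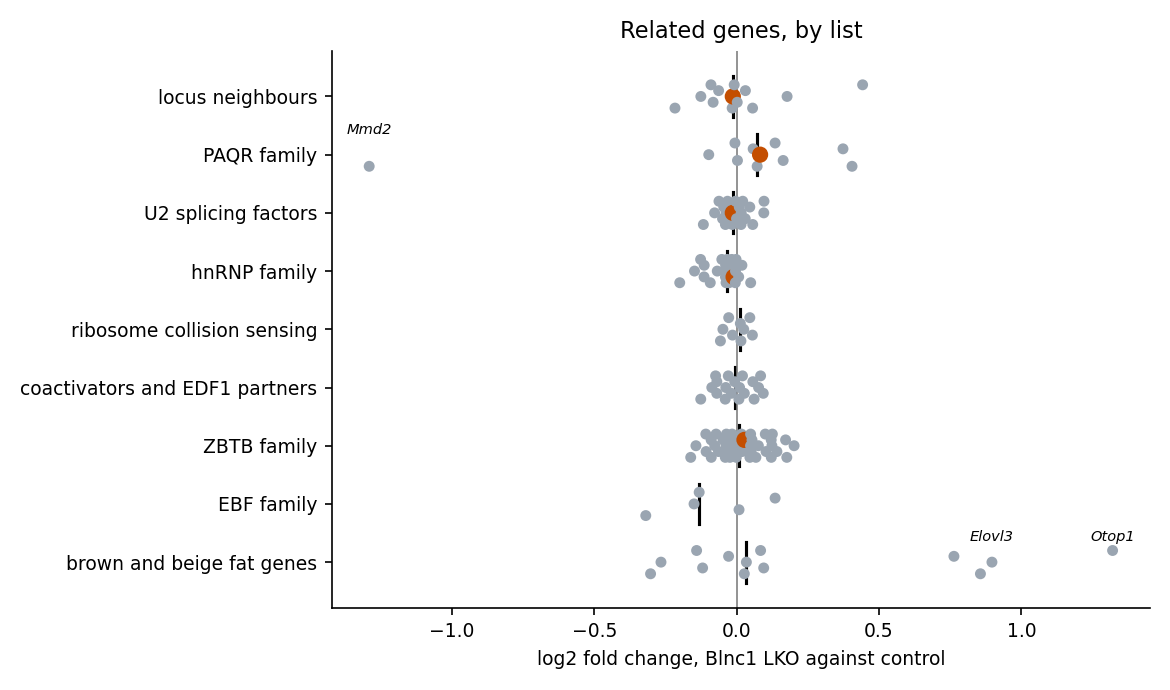
Each point is 1 tested gene, placed by its log2 fold change of LKO against control (limma, 3 livers per group), with lists of related genes on the y axis, Paqr9, U2surp, Hnrnpu and Zbtb7b in orange (Edf1 is in none of these lists) and list medians as black bars. Most points lie within 0.25 of 0. Mmd2 stands at −1.29, Elovl3 at 0.90 and Otop1, a gene of few reads, at 1.32.

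Levels were compared between genes only per kilobase of annotated exon. Edf1 had the highest level, with a mean of 8141 ± 281 (SD, n = 6 livers) normalized reads per kilobase, above 97.5% of 16733 genes with a length. Paqr9 followed at 2089 ± 226, Hnrnpu at 1330 ± 48.1, Zbtb7b at 801 ± 48.6 and U2surp at 223 ± 14.1, while the median of all genes was 162. Zbtb7b stood above 80.2% of genes, and Ebf2, at 0.136, above 0.179%. In this order, each gene was above the next in 6 of 6 livers, and no neighbouring ranges overlapped. The ratio was 3.90 between Edf1 and Paqr9, 1.57 between Paqr9 and Hnrnpu, 1.66 between Hnrnpu and Zbtb7b, and 3.59 between Zbtb7b and U2surp. With the longest transcript in place of all annotated exons the order stayed, but Hnrnpu (1956 to 2140 per kilobase) then lay inside the range of Paqr9 (1811 to 2394), so their order is not settled. The Paqr9 level per kilobase includes any reads of Blnc1 that lie within the Paqr9 exon. The paper describes EBF2 and ZBTB7B expression as low in hepatocytes, whereas these levels are mRNA of whole liver.

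**Figure D5:**
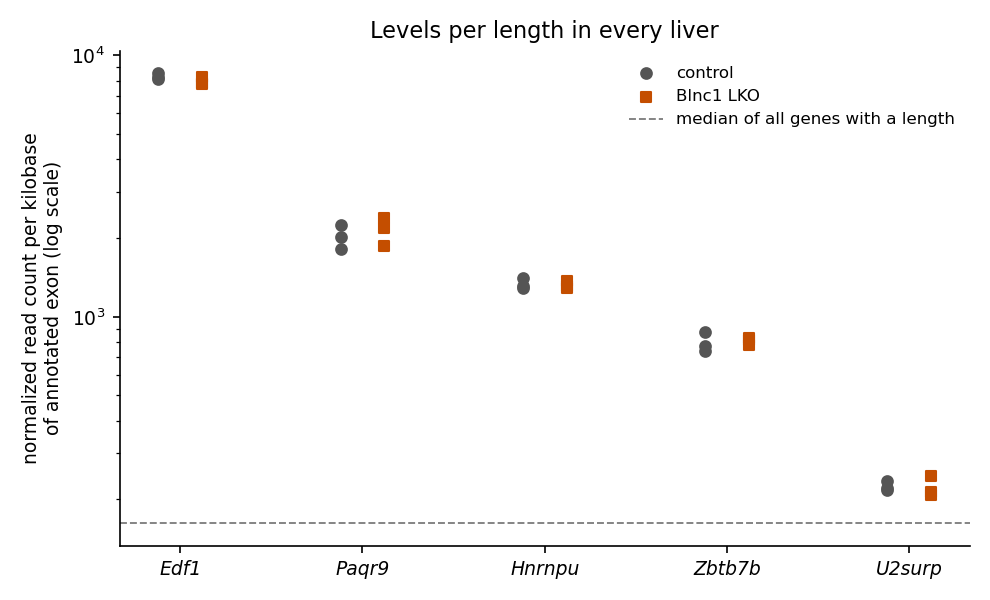
The y axis gives the normalized read count per kilobase of annotated exon on a log scale for 5 genes, with 1 point per liver (control grey circles, Blnc1 LKO orange squares). The dashed line is the median of all genes with a length, at 162, and Ebf2, at 0.136, is off the scale. Control and LKO points overlap within each gene, and the 5 genes form separate steps.

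The start regions of 4 of the 6 genes are in the RefSeq promoter table (GRCm38.p6), each covering 250 bases before to 50 bases after the start, and are shown as the annotated starts of the tested genes. Which starts these livers use was not measured, and Zbtb7b has 2 in the table, of which the upstream one is printed. Capitals mark the GC box, GGGCGG on either strand. The 4 windows, written 5′ to 3′ on the strand of the gene, are those of U2surp (chr9:95511947-95512246, − strand), Hnrnpu (chr1:178337766-178338065, − strand), Edf1 (chr2:25557597-25557896, + strand) and the upstream start of Zbtb7b (chr3:89393329-89393628, − strand).
U2surp: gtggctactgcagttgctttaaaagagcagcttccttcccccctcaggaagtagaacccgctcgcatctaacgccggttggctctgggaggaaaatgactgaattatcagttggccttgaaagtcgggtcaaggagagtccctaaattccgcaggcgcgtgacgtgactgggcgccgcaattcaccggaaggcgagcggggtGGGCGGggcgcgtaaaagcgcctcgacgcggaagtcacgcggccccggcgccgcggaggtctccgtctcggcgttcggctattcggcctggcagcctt
Hnrnpu: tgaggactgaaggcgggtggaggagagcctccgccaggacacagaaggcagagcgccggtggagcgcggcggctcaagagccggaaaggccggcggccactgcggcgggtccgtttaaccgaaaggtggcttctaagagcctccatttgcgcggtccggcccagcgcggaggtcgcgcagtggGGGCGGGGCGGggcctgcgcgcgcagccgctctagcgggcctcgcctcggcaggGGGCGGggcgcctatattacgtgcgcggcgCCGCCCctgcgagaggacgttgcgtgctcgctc
Edf1: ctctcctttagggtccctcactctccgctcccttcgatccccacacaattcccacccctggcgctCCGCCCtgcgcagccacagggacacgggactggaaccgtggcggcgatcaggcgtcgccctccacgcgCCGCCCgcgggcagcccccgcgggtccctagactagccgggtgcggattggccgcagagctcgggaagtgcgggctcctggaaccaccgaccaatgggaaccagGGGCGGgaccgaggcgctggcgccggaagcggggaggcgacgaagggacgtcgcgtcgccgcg
Zbtb7b: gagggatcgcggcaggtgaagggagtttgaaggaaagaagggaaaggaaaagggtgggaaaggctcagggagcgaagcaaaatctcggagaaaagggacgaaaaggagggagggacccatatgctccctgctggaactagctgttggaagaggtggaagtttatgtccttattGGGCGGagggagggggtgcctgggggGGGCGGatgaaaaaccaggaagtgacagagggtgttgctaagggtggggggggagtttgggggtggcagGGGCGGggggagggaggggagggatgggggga
All 4 windows held the GC box, as did 35.7% of 32851 promoters of the same length, with 1 copy in U2surp, 4 in Hnrnpu, of which 2 run into each other, 3 in Edf1 and 3 in Zbtb7b. Their GC content was 62%, 72.7%, 72.3% and 59.7% in the same order, against a median of 52.7% over all promoters. CCAAT on either strand was present in Edf1, with 2 copies, and Zbtb7b, with 1, and in 37.4% of all promoters. The nuclear receptor core site AGGTCA and the EBF palindrome, searched on both strands, had no match in these windows, and are found in 16.3% and 0.904% of all promoters.

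The genes whose level followed each of the 5 tested genes most closely were found over the 6 livers among 12468 genes with a mean of at least 100. For Paqr9 these were Slc35e3, Gbf1 and Tmem251 (Pearson r of the log2 values from 0.985 to 0.988), for U2surp they were Hmgb1, Thyn1 and Dpys (0.996 to 0.999), and for Hnrnpu they were Rsbn1, Trp53inp1 and Apool (0.981 to 0.987). For Edf1 they were Ctsc, Mrpl2 and Bcl7b (0.967 to 0.987), and for Zbtb7b they were 0610040J01Rik, Naa38 and Opa3 (0.984 to 0.993). These values describe 6 points that share their library scaling, and between 42 and 289 genes reached an r of 0.9 with each of the 5. None of these 15 genes was called by limma (adjusted p from 0.950 to 1.00), which called 0.00578% of all genes. They were picked for following genes that limma did not call, so this is no separate result.

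The hepatocyte markers were abundant, with a summed normalized read count from 5266376 to 5840914 in control and from 5135761 to 6220366 in LKO livers over 6 of 6 genes. Of the markers of other cells, summed macrophage levels over 5 of 5 genes ranged from 27157 to 33094 in control and from 33881 to 40039 in LKO livers. Summed endothelial levels over 5 of 5 genes ranged from 18361 to 19311 and from 17617 to 17798. These 2 lists did not overlap between groups, whereas the T-cell list and 4 others did. Those were B cells (451 to 646 in control and 571 to 680 in LKO livers), adipocytes (571 to 1600 and 1438 to 1791), cholangiocytes (2528 to 3942 and 2720 to 3803) and stellate and mural cells (17225 to 18369 and 16544 to 19048). The adipocyte sum was nearly all Cfd, and the other adipocyte markers in the table were close to 0. None of the 42 tested marker genes was called by limma, edgeR or voom after adjustment. Rgs5, a pericyte gene, was called by DESeq2, beside 0.538% of all genes. At an unadjusted p under 0.05, limma called 8 of the 42 (19.0%), against 5.68% of all genes. These were 3 macrophage genes and 1 adipocyte gene (Cfd), higher in LKO livers, and 3 endothelial genes and 1 stellate or mural cell gene, lower in LKO livers. Of the 5 macrophage genes, 4 had a log2 fold change above 0 and 1 below. Of the 5 endothelial genes, 4 had one below 0 and 1 above. Taken singly, 1 macrophage gene (higher) and 2 endothelial genes (lower) did not overlap between groups, beside 5.35% and 5.28% of all genes in those directions. The part of these cells in the levels of the 5 tested genes was not tested.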

How the data were processed

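The authors sequenced liver polyA RNA of 3 control and 3 Blnc1 LKO mice. Per the labels and the study's methods, reads were aligned to mm10 with STAR, counted per gene with HTSeq and analysed with DESeq2 (FastQC is also named). Versions, gene annotation, strand setting and filters are not given in the sources used here. The deposited signal is a gene-level read count scaled by the library size factor, without length correction. Columns named for wild type and knockout were matched by number to the control and LKO livers. Of the 17460 symbols, 23 are calendar dates made by a spreadsheet and were not named.

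limma (version 3.58.1, R 4.3.3; lmFit, eBayes with trend) was fitted to log2(value + 1), on which scale fold changes understate low genes, over 17297 genes that reached 1 in 3 or more livers, without covariates. p-values were adjusted by Benjamini-Hochberg over all genes, with a threshold of 0.05, and intervals are 95%. The smallest nonzero entry of a column is worth 1 read, and in that unit entries were whole reads for 100% of values (within 0.05 of a whole number), from 65384969 to 89350181 per liver, which edgeR (4.0.16, quasi-likelihood), DESeq2 (1.42.0) and voom used. DESeq2 gave an adjusted p for 15617 genes. Scripts were tested on simulated data.

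The members and lists were chosen with earlier results of these data known. Named are all 6 members, the 3 nearest genes on each side of Paqr9, from each list the genes called by limma, edgeR or DESeq2 and those of smallest p up to 3, member paralogs, and for each member the 3 genes of highest r. One gene that this rule names is not reported here. Calm2, Zbtb1, Zbtb2, Zfp521, Nr1h3 and Paqr8 separations, Rbm17, Cherp, Adipor1, Adipor2, Cox20, Gm15417, Adipoq, Retn, Plin1 and Cfd values were added for their roles or after their values were seen. Lengths and overlaps came from GENCODE M21 (GRCm38). Alternatives were a pseudocount of 0.1, no filter, a floor of 10 reads in all livers, a replicate block, library size as the only scaling, each liver left out in turn, and the longest transcript as length. The replicate numbers come from the labels, and no pairing of mice is stated. The genome sequence and protein sequences were not used here.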

Additional observations from a re-analysis of the deposited data

How the results depend on the processing

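For Paqr9, U2surp, Hnrnpu, Edf1 and Zbtb7b, none of the 14 alternative fits per gene gave an adjusted p under 0.05, with the lowest at 0.550, for Paqr9 without LKO replicate 2. In the 8 alternatives that kept all 6 livers, no direction changed, and Paqr9 lay between 0.075 and 0.084 and Edf1 between −0.067 and −0.062. Leaving out single livers gave log2 fold changes from 0.00077 to 0.178 for Paqr9, from −0.088 to −0.042 for Edf1, from −0.088 to 0.031 for U2surp, from −0.036 to 0.028 for Hnrnpu and from −0.026 to 0.098 for Zbtb7b. The direction turned for U2surp without control replicate 3 (0.018), LKO replicate 2 (0.015) or LKO replicate 3 (0.031), for Hnrnpu without control replicate 3 (0.028) or LKO replicate 2 (0.0063), and for Zbtb7b without control replicate 3 (−0.026). The count of genes called over all genes was 1. It was 2 without a filter on low values and in edgeR, 0 with the replicate block, 84 in DESeq2, from 0 to 13 with 1 liver left out (0 without control replicate 1, 13 without LKO replicate 2) and 983 at an unadjusted p. DESeq2 called 1 gene of the PAQR family (Mmd2) and 1 of the LXR complex (Srebf1), and the cause of these differences between tests was not tested. Deviations of same-numbered livers from their group means had correlations of −0.06, −0.02 and −0.11 for numbers 1, 2 and 3. Deviations of 3 livers from their own mean are not independent, so these values cannot decide whether the numbers pair the mice. Under the replicate block the Paqr9 log2 fold change was 0.08, U2surp −0.01, Hnrnpu −0.01, Edf1 −0.06 and Zbtb7b 0.03, with 0 genes called in any list. With the longest transcript as length, the levels per kilobase were 11782 for Edf1, 2019 for Hnrnpu, 1034 for Zbtb7b and 429 for U2surp. Ebf2 had too few reads for a fold change under any setting.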
